A study of Homo sapiens with 24 samples.

Results

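A set of 7 genes whose products mostly hold Wnt signalling back, several of them known as feedback targets of the pathway, was followed across every group of the series: AXIN1, AXIN2, NKD1, NKD2, NOTUM, APCDD1 and TNFRSF19. They were taken by name from the gene table, and each was found once, giving 7 of 28301 features.

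Messenger RNA was sequenced from H9, an established human embryonic stem cell line, grown in E8 medium. The engineered cells, called optoWnt, carried the plant photoreceptor Cry2, which forms clusters when exposed to blue light, joined to the cytoplasmic part of the Wnt co-receptor LRP6, together with mCherry and a puromycin resistance gene; the wild-type cells carried eGFP and a neomycin resistance gene. The 8 groups of 3 libraries were engineered monocultures under light (Cry2 light) and in the dark (Cry2 dark), wild-type monocultures under light (wt light) and in the dark (wt dark), engineered cells sorted by mCherry from illuminated and dark co-cultures (mCh light, mCh dark), and wild-type cells sorted by GFP from illuminated and dark co-cultures (GFP light, GFP dark). Co-cultures mixed optoWnt and wild-type cells at equal numbers. Illuminated cells received 0.8 µW/mm2 for 48 h. Each replicate pooled 2 to 3 wells, and no source used here says whether the engineered cells were 1 clone. Because the 3 libraries of a group come from wells of 1 line, p-values measure the spread between those libraries.

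In canonical Wnt signalling, a Wnt ligand bound to Frizzled and LRP5 or LRP6 recruits Dishevelled and AXIN to the membrane, which stops the destruction complex from marking beta-catenin for degradation. Stabilised beta-catenin enters the nucleus and acts with TCF/LEF factors on target genes, and several of those targets restrain the pathway. The feedback acts at different levels: AXIN proteins scaffold the destruction complex in the cytoplasm, NKD proteins bind Dishevelled, APCDD1 sits in the membrane and binds Wnt and LRP proteins, and NOTUM is secreted and removes the lipid that Wnt ligands need for receptor binding.

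Promoter sequences are shown for APCDD1 and TNFRSF19, which were higher in engineered cells under light than in the dark. AXIN1, for which this difference did not pass the test, is shown as a contrast. Of the 7 genes, AXIN1, NKD2, APCDD1 and TNFRSF19 matched the RefSeq promoter table (GRCh38.p14); AXIN2, NKD1 and NOTUM are named only. Each line gives the 250 bases before a transcription start, 5′ to 3′, on the gene's own strand. The TCF/LEF core motif was searched as CTTTGAT and as CTTTGTT, on both strands, in the 300-base window that runs to 50 bases past the start. Neither was found in any window of the 4 genes, so no base is in capitals.
APCDD1, chr18:10454385-10454634, plus strand: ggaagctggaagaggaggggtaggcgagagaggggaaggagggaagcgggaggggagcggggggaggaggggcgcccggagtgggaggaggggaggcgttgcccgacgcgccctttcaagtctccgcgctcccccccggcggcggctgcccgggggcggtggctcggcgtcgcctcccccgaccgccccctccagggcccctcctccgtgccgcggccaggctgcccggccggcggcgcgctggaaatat
TNFRSF19 first start, chr13:23570162-23570411, plus strand: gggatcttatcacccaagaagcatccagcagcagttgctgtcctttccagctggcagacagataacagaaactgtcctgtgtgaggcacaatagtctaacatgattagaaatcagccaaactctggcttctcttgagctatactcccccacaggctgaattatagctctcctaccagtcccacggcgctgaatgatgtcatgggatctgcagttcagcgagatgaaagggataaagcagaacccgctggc
TNFRSF19 second start, chr13:23579110-23579359, plus strand: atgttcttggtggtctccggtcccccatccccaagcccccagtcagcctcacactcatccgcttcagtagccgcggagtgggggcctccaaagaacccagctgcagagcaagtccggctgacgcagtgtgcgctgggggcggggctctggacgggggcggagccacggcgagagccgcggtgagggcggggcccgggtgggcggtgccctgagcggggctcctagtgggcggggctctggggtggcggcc
AXIN1, chr16:352724-352973, minus strand: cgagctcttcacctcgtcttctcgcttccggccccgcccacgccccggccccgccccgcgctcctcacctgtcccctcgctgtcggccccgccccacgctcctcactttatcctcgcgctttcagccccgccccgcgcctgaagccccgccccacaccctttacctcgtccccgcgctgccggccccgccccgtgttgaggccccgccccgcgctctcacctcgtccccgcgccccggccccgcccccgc
Across all 35116 promoters of the table, 2.62% held the first motif, 5.20% the second and 7.61% either of them, so most windows lack both, as these do. GC content was 77.2% for APCDD1, 49.6% and 72.4% for the first and second TNFRSF19 start, and 77.6% for AXIN1, beside a median of 58.0% over all promoters. A window without these letters says nothing about binding elsewhere in the locus.

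Values are the authors' normalised read counts, which are reads divided by 1 factor per library. Libraries held 45763662 to 54707558 assigned reads in illuminated monocultures, 28237578 to 34291124 in dark monocultures and 31807414 to 56639833 in co-cultures. In monoculture, depth and light therefore cannot be told apart by design. The light results with every library thinned to the smallest are given below. The label of stem cell held for the dark and the wild-type libraries: 7 pluripotency markers, POU5F1 and NANOG among them, summed to 74788 to 91653 in the illuminated engineered libraries, against 255534 to 287914 in all others. The sum of 6 primitive streak and early mesoderm markers was 118239 to 138661 in the illuminated engineered libraries, against 169 to 711 in all others, with MSGN1 at 0 in Cry2 dark and wt dark. The sum of 4 definitive endoderm markers was 12618 to 18597 in the illuminated engineered libraries, against 90.2 to 290.2 in all others, that of 3 neural markers 1504 to 2237 against 1027 to 1524, with PAX6 at 0 in Cry2 light and mCh light, and that of COL1A1 and COL3A1, markers of fibroblast feeders, 5957 to 9165 against 2354 to 4429.5. Thus every contrast of illuminated engineered cells below also compares cells in different states, and what that difference adds to each gene was not tested. In bulk RNA, more cells expressing a gene and more RNA per cell cannot be told apart. A pair of libraries had read counts far from the others of their group, mCh light library a and wt light replicate 2. In mCh dark, GFP light and GFP dark, too, library a was further from b and c than these were from each other, though less so. The lowest GC content, 33.73%, was that of wt dark replicate 1, and the lowest RNA integrity number, 7.6, that of Cry2 dark replicate 3.

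Of the 7 genes, AXIN2, NKD1, NOTUM, APCDD1 and TNFRSF19 were strongly higher in engineered cells under light than in the dark, in monoculture and after sorting from co-culture. AXIN1 and NKD2 did not pass the test in either setting. The plot of values by library shows the contrast: for the 5 genes all 6 illuminated engineered libraries lie above the other 18, and for AXIN1 and NKD2 the values overlap. The share of all genes that separate in this way was not computed. Between light and dark alone, 65.7% of genes did not overlap in Cry2 cells and 58.4% in mCh cells, in either direction. Lack of overlap was therefore common.

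**Figure D1:**
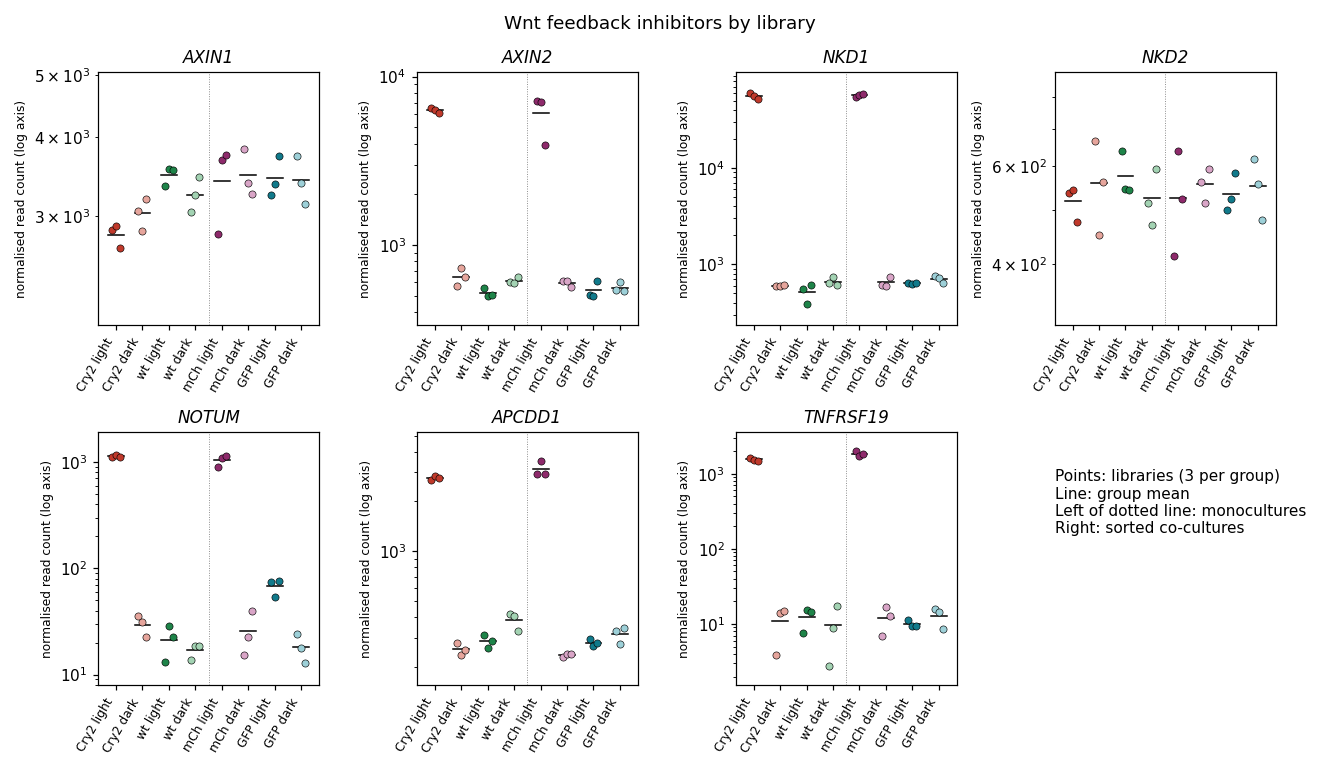
Normalised read count (log axis) of each of the 7 genes in each of the 24 libraries; points are libraries, black lines are means of 3, and the dotted line separates monocultures from sorted co-cultures. AXIN2, NKD1, NOTUM, APCDD1 and TNFRSF19 are high in Cry2 light and mCh light, NOTUM lies above its dark level in GFP light as well, and AXIN1 and NKD2 keep to a narrow band.

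The scaffold genes come first. AXIN2 (17:65528563-65561647, minus strand; coordinates here and below are those of the whole gene, exons and introns, in GENCODE 29 on GRCh38) encodes the inducible AXIN and is the classic read-out of beta-catenin activity. It stood at 6479.9, 6329 and 6112 in Cry2 light, against 572, 728 and 644 in Cry2 dark. All 3 illuminated libraries were high, close to each other, and far from the dark ones. The mean rose 9.73-fold (log2 change 3.29 ± 0.09 SE, limma adjusted p = 1.17e-13). In sorted cells AXIN2 stood at 7175, 7048 and 3911 in mCh light, against 614, 612 and 558 in mCh dark, a 10.2-fold rise (log2 change 3.29 ± 0.18 SE, limma adjusted p = 6.43e-10). Again the groups did not overlap, but 1 illuminated library, c, lay well below the other 2.

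Library c had 0.550 times the AXIN2 value of the mean of libraries a and b. It held 31807414 assigned reads, the fewest of the co-culture libraries, against 48531768 in a and 55593196 in b. Among 7484 genes with a mean of at least 1000 in mCh light, 40 genes (0.534%) had a ratio that low or lower, and the median ratio was 1.06. Among the other 6 genes followed here the ratio of c to the other libraries ran from 0.903 for APCDD1 to 1.16 for NOTUM, so the dip was seen in AXIN2 alone of the 7. DACT1, which encodes a Dishevelled-binding protein, was also low in c, at 19446 against 31903 and 32704. Other Dishevelled regulators were high in c: PRICKLE1, at 1509.5 against 938 and 915, and CXXC5, at 5257 against 3286 and 3886. These genes were picked out after their values were seen. Without library c the log2 change of AXIN2 was 3.58, and without library a, which stands apart over all genes, it was 3.14. The plot of library ratios sets the 3 mCh light libraries side by side.

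**Figure D2:**
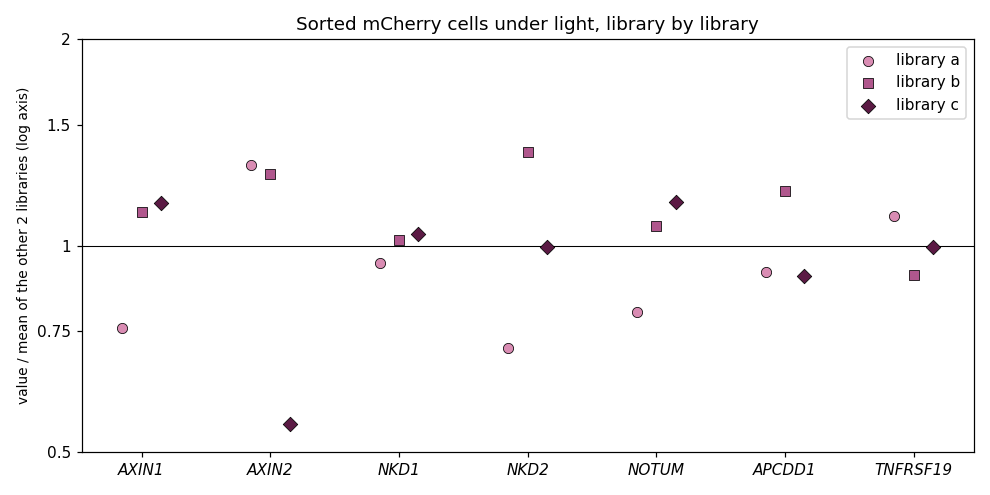
Value of each gene in each mCh light library divided by the mean of the other 2 libraries of the group (log axis); circles, squares and diamonds are libraries a, b and c. AXIN2 in library c, at 0.550, is the lowest point, and library a is the lowest of the 3 for AXIN1, NKD1, NKD2 and NOTUM.

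AXIN1 (16:287440-352673, minus strand) encodes the constitutive scaffold. It stood at 2854, 2897 and 2679.6 in Cry2 light, against 3060.4, 2845 and 3194 in Cry2 dark. The illuminated values lay at the low side with overlap, and the log2 change was -0.11 (95% interval -0.25 to 0.03, limma adjusted p = 0.175). In sorted cells it stood at 2819, 3677 and 3743 in mCh light, against 3824, 3388 and 3251 in mCh dark. These groups overlapped in part, with the lowest of the 6 values in mCh light and the highest in mCh dark (log2 change -0.04, 95% interval -0.28 to 0.20, limma adjusted p = 0.789). Both intervals exclude a doubling or a halving; they do not show that the level stayed the same.

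The 2 AXIN genes therefore changed places. Compared per length, as reads per kilobase of merged exon and per 1e6 assigned reads, AXIN2 had 28.1 ± 0.92 and AXIN1 8.75 ± 0.37 in Cry2 light, against 2.99 ± 0.37 for AXIN2 and 9.75 ± 0.49 for AXIN1 in Cry2 dark (SD, n = 3 each). AXIN1 had the highest level per length of the 7 genes in all 6 dark or wild-type groups, and was passed by 3 of them in Cry2 light and mCh light.

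The Dishevelled-binding genes split in the same way. NKD1 (16:50548330-50649249, plus strand), the human relative of the fly gene naked cuticle, stood at 59588, 56342 and 51801 in Cry2 light, against 589, 601 and 610.2 in Cry2 dark. No dark library came near an illuminated one. The rise was 93.2-fold (log2 change 6.54 ± 0.13 SE, limma adjusted p = 3.95e-15). In sorted cells NKD1 stood at 54476, 57366 and 58214 in mCh light, against 615, 599 and 730.2 in mCh dark, a rise of 87.5-fold (log2 change 6.45 ± 0.09 SE, limma adjusted p = 4.71e-16). The values of both illuminated groups were tight, and both dark groups were low. Per length NKD1 went to the highest of the 7 genes, at 74.8 ± 5.49 in Cry2 light, against 0.829 ± 0.010 in Cry2 dark, where 4 of the genes were above it. A same-strand transcript inside the locus, AC007608.4, had values of 0 to 29.9 over all libraries, and the antisense AC007608.1 0 to 6.47, small beside those of NKD1.

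NKD2 (5:1008829-1038943, plus strand), the paralogue, varied within its spread. It stood at 537, 544 and 476 in Cry2 light, against 667, 451 and 563 in Cry2 dark. In sorted cells it stood at 413, 640.5 and 524 in mCh light, against 562, 515 and 594 in mCh dark. All 24 libraries lay between 413 and 667, and neither contrast passed the test (log2 change -0.09, 95% interval -0.39 to 0.20, limma adjusted p = 0.589 in monoculture; log2 change -0.10, 95% interval -0.43 to 0.22, limma adjusted p = 0.585 in sorted cells). Per length NKD2 was the lowest of the 7 genes in Cry2 light, at 4.19 ± 0.31, and was above NKD1 in Cry2 dark, at 4.68 ± 0.91. Before division by length, the Cry2 dark means were 600 for NKD1 and 560 for NKD2. Merged exons span 17425 bases in NKD1 and 2885 in NKD2. They count every annotated exon, so this order in the dark rests on the length used.

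NOTUM (17:81952507-81961840, minus strand), the secreted Wnt deacylase, stood at 1108, 1172 and 1114 in Cry2 light, against 35.3, 31.1 and 22.3 in Cry2 dark. The illuminated libraries were nearly equal and the dark ones near the low end of detection, with 64 reads in all. The rise was 38.3-fold (log2 change 5.24 ± 0.29 SE, limma adjusted p = 3.65e-10). In sorted cells it stood at 888, 1083 and 1139 in mCh light, against 15.4, 22.3 and 39.6 in mCh dark, a 40.2-fold rise (log2 change 5.37 ± 0.32 SE, limma adjusted p = 1.40e-09). The groups were far apart both times.

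APCDD1 (18:10454628-10489948, plus strand), the membrane inhibitor, stood at 2687, 2831 and 2766 in Cry2 light, against 279, 236 and 254 in Cry2 dark. The rise was 10.8-fold (log2 change 3.43 ± 0.11 SE, limma adjusted p = 1.02e-12) with no overlap. In sorted cells it stood at 2951, 3523 and 2924 in mCh light, against 231, 239 and 240.5 in mCh dark, a 13.2-fold rise (log2 change 3.71 ± 0.12 SE, limma adjusted p = 1.25e-12). The 3 mCh light values all lay above the 3 Cry2 light values, a difference in level between sorted and unsorted cells that was not tested.

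TNFRSF19 (13:23570370-23676104, plus strand), also called TROY, encodes a receptor of the tumour necrosis factor family that has been described as a Wnt target. It stood at 1639, 1531 and 1488 in Cry2 light, against 3.92, 14.1 and 14.9 in Cry2 dark, where the 3 libraries held 23 reads together. The mean rose 141-fold (log2 change 7.20 ± 0.53 SE, limma adjusted p = 1.36e-08), the largest fold of the 7 genes in this contrast and the one with the widest error. In sorted cells it stood at 1978, 1735 and 1849.6 in mCh light, against 6.85, 16.7 and 12.7 in mCh dark, a 153-fold rise (log2 change 7.22 ± 0.32 SE, limma adjusted p = 5.33e-11). With so few reads in the dark the fold is imprecise, while the groups lay far apart in both cultures.

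Thus 5 of 7 genes were higher in Cry2 light than in Cry2 dark and 0 lower, where 28.1% of 19444 genes tested were called higher and 30.4% lower and the groups did not overlap for 65.7%. In mCh light against mCh dark it was again 5 higher and 0 lower, beside 27.2% and 28.7% of 19436 genes, with no overlap for 58.4%. Being called was thus common in these cells. The median log2 change over the 7 genes was 3.43 against -0.01 over all genes in monoculture and 3.71 against -0.01 in sorted cells. Scaling between libraries keeps the median over all genes near 0, and the 7 genes were chosen with earlier results of these data known. The medians are therefore description only. With reads thinned to the smallest library, a setting chosen after seeing the data, the log2 changes of the 5 genes in Cry2 light ran from 3.26 for AXIN2 to 7.15 for TNFRSF19.

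**Figure D3:**
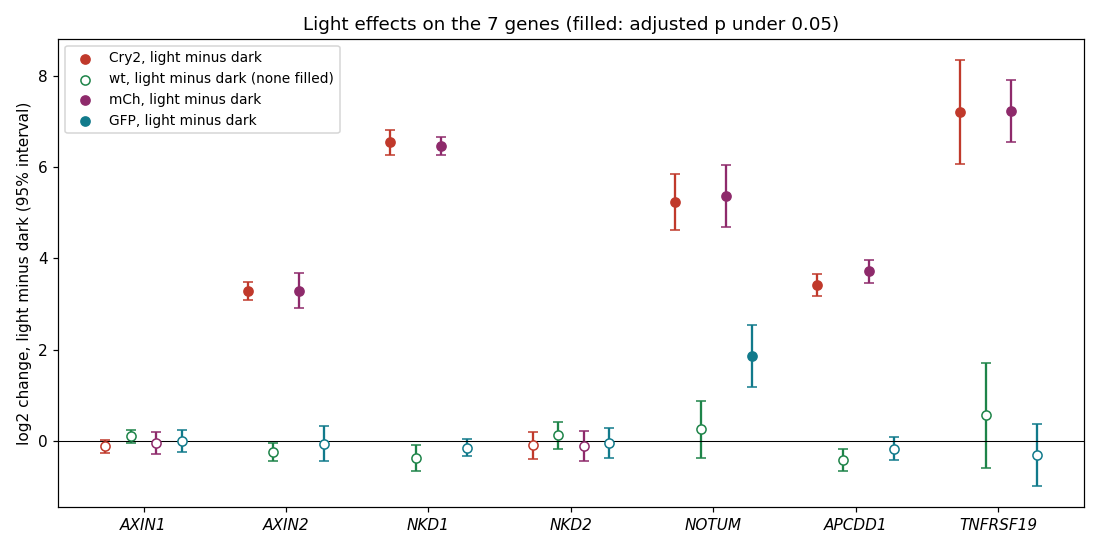
Log2 change, light minus dark, for each gene in Cry2 and wt monocultures and in sorted mCh and GFP cells, with 95% intervals from limma; filled points passed an adjusted p of 0.05. The 5 genes rise in Cry2 and mCh cells by 3.29 to 7.22, and among wild-type cells only NOTUM in GFP cells, at 1.86, is filled.

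The light effect in engineered cells was then compared between co-culture and monoculture. Only the co-culture cells were sorted, and monocultures and co-cultures were deposited as separate sets of libraries. Wild-type neighbours, sorting and the set of libraries therefore cannot be told apart in this contrast. Depth went with light in the monocultures and not in the co-cultures, so it enters this contrast as well. For none of the 7 genes did the difference pass the test, where 0.064% of 20322 genes did. The difference of log2 effects, co-culture minus monoculture, was 0.29 for APCDD1 (95% interval -0.04 to 0.62, limma adjusted p = 0.964), 0.00 for AXIN2 (-0.43 to 0.44), -0.08 for NKD1 (-0.42 to 0.26), 0.14 for NOTUM (-0.76 to 1.03) and 0.03 for TNFRSF19 (-1.32 to 1.37). The intervals are narrow for APCDD1, AXIN2 and NKD1 and wide for the genes that were nearly silent in the dark. At an unadjusted p under 0.05 it was 0 of the 7 genes and 1018 of all genes, and with edgeR and DESeq2 it was also 0 of 7.

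Wild-type monocultures given the same light were compared with wild-type monocultures in the dark. None of the 7 genes passed the test, where 0.072% of 19444 genes did. APCDD1 stood at 313, 261 and 289 in wt light, against 421, 405 and 332 in wt dark. AXIN2 stood at 557, 496 and 503 in wt light, against 601, 592 and 641 in wt dark. NKD1 stood at 549.7, 390.3 and 615 in wt light, against 644, 734 and 604 in wt dark. The value of 390.3 is that of wt light replicate 2, whose read counts were far from the others of its group. Over all settings the log2 change of NKD1 ran from -0.51 to -0.18. For APCDD1 and AXIN2 the illuminated values all lay below the dark ones, as they did or the reverse for 17.8% of all genes, and for NKD1 they overlapped. The log2 changes were -0.42 (limma adjusted p = 0.190), -0.24 (limma adjusted p = 0.302) and -0.37 (limma adjusted p = 0.271). These 3 genes had unadjusted p-values under 0.05, as did 2559 genes in all; with edgeR none of the 7 genes passed, and with DESeq2 APCDD1 did (adjusted p = 0.0241). NOTUM stood at 13.02, 28.6 and 22.4 in wt light, against 13.8, 18.7 and 18.6 in wt dark, and its groups overlapped (log2 change 0.25, 95% interval -0.36 to 0.87).

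In wild-type cells sorted from co-culture, NOTUM was the 1 gene of the 7 that was higher when the co-culture had been illuminated. It stood at 73.7, 53.7 and 75.5 in GFP light, against 23.9, 17.96 and 12.9 in GFP dark. Every illuminated library was above every dark one, on 211 reads in GFP light and 65 reads in GFP dark. The rise was 3.71-fold (log2 change 1.86 ± 0.32 SE, limma adjusted p = 0.00270), where 2.39% of 19436 genes were called higher and 2.21% lower and 24.8% did not overlap. It passed in every alternative setting and with any 1 library left out, with a log2 change of 1.46 to 2.10 and an adjusted p of at most 0.0186. From high to low the mean levels of NOTUM ran Cry2 light, mCh light, GFP light, Cry2 dark, mCh dark, wt light, GFP dark and wt dark. GFP light overlapped with neither neighbour in this order, whereas from Cry2 dark on each group overlapped with the next.

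The other 4 genes that rose in engineered cells did not pass in GFP cells. AXIN2 stood at 505, 495 and 613 in GFP light, against 541, 598 and 535 in GFP dark. NKD1 stood at 641, 630.1 and 641 in GFP light, against 759, 716 and 640.4 in GFP dark. APCDD1 stood at 296, 267 and 279 in GFP light, against 331, 277 and 343 in GFP dark. In all 3 the groups overlapped and the mean was slightly lower in GFP light (log2 changes -0.06, -0.14 and -0.17, limma adjusted p = 0.930, 0.484 and 0.528). TNFRSF19 stood at 11.3, 9.42 and 9.43 in GFP light, against 15.9, 14.4 and 8.59 in GFP dark, again with overlap (log2 change -0.30, limma adjusted p = 0.722). AXIN1 (log2 change 0.01) and NKD2 (log2 change -0.04) also overlapped.

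Whether light acted differently on wild-type cells beside engineered cells than on wild-type cells alone was tested on the difference of effects. Neighbours, sorting and the set of libraries again go together in it, and depth goes with light in the monocultures only. For NOTUM this difference, co-culture minus monoculture, was 1.60 ± 0.44 SE on the log2 scale (95% interval 0.71 to 2.50) with a limma adjusted p of 0.0501, just above the threshold of 0.05, and so 0 of 7 genes were called where 2.3% of 20322 genes were. At an unadjusted p under 0.05 it was 1 of the 7 genes, NOTUM, and 2734 of all genes. Over all settings its adjusted p ran from 0.00533 with DESeq2 to 0.166, and edgeR called 0 of 7. It passed with a pseudocount of 10 (0.0307) and a filter of 50 (0.0370), and without wt light replicate 2 (0.0307), GFP dark library a (0.0371), mCh light library a (0.0469), mCh dark library a (0.0357) or mCh dark library c (0.0318); the mCh libraries enter through the shared estimate of spread.

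The sorted GFP cells could hold some mCherry cells, so construct reads were set beside NOTUM. The puromycin gene of the construct had values of 3.01, 1.88 and 0 in GFP light, against 1.77, 0 and 5.72 in GFP dark and 1978, 3392 and 4199 in mCh light. It was 0 in all 6 wt light and wt dark libraries. The Cry2 fusion itself had values of 422, 358 and 408 in GFP light, against 349, 398 and 364 in GFP dark and 52164 to 61394 in mCh light. It also had values of 219 to 310.1 in wt light and 325 to 427 in wt dark, cells that do not carry it. As a share of the mean in mCh light, the mean in GFP light was 0.0511% for the puromycin gene, 0.694% for the fusion and 6.52% for NOTUM. The measured differences, GFP light minus GFP dark, were 49.4 for NOTUM, 25.8 for the fusion, -0.87 for the puromycin gene, -67.8 for NKD1 and -2.92 for TNFRSF19. The GFP light and GFP dark values of the fusion and of the puromycin gene overlapped. What mCherry cells left in the GFP sort add to the NOTUM value was not tested. The plot of sorted libraries shows NOTUM as the 1 gene of these whose GFP light and GFP dark values do not overlap.

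**Figure D4:**
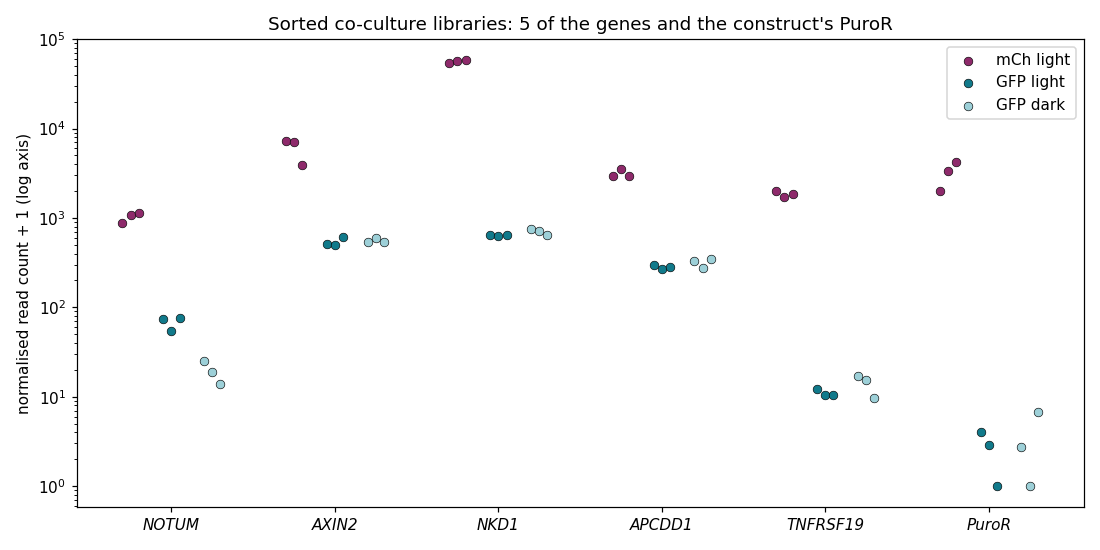
Normalised read count plus 1 (log axis) of 5 of the genes and of PuroR, the construct's puromycin resistance gene, in mCh light, GFP light and GFP dark; each point is 1 of 3 libraries. NOTUM lies at 53.7 to 75.5 in GFP light, above 12.9 to 23.9 in GFP dark, while the other 4 genes and PuroR overlap between GFP light and GFP dark.

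Primitive streak markers moved in the same libraries. The 6 markers summed to 653 to 711 in GFP light, against 206 to 249 in GFP dark, and TBXT, EOMES and MIXL1, 3 of the 6, were called higher, beside 2.39% of all genes called higher and 2.21% called lower. TBXT averaged 119 ± 14.2 in GFP light and 4.57 ± 2.42 in GFP dark, EOMES 244 ± 32.8 in GFP light and 5.95 ± 2.05 in GFP dark, and MIXL1 157 ± 14.0 in GFP light and 48.2 ± 2.34 in GFP dark (SD, n = 3 each). As a share of the distance between GFP dark and mCh light, these differences were 0.411% for TBXT, 4.11% for EOMES and 0.162% for MIXL1, beside 4.85% for NOTUM. The 4 definitive endoderm markers summed to 199 to 290.2 in GFP light, against 92.9 to 135 in GFP dark, and 1 of the 4 was called higher: CER1, a secreted inhibitor of Nodal, BMP and Wnt, averaged 165 ± 32.3 in GFP light and 55.7 ± 13.2 in GFP dark (SD, n = 3 each). The 7 pluripotency markers summed to 269408 to 284859 in GFP light, against 255534 to 257185 in GFP dark, with NANOG called higher and TDGF1 called lower. NANOG averaged 6193 ± 189 in GFP light and 4006 ± 218 in GFP dark (SD, n = 3 each). MSGN1, which marks paraxial mesoderm, had a mean of 1.40 in GFP light and 0.24 in GFP dark. The part of such a change of state in the NOTUM value was not tested.

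Engineered and wild-type cells were also compared in the dark, where the receptor should be at rest, and 1 of the 7 genes was called. APCDD1 stood at 279, 236 and 254 in Cry2 dark, against 421, 405 and 332 in wt dark. It was 1.503-fold lower in Cry2 dark with no overlap (log2 change -0.58 ± 0.11 SE, limma adjusted p = 0.00941), where 2.27% of 19444 genes were called higher and 1.33% lower and 27.4% did not overlap. Without wt dark replicate 1, the library of low GC content, the log2 change was -0.51 and the adjusted p was 0.0537, and without that library and Cry2 dark replicate 3 it was -0.51 with an adjusted p of 0.126; over all alternatives the adjusted p ran from 9.3e-05 to 0.126. The sorted cells gave a difference of the same sign that did not pass: APCDD1 stood at 231, 239 and 240.5 in mCh dark, against 331, 277 and 343 in GFP dark (log2 change -0.41 ± 0.12 SE, limma adjusted p = 0.225). These groups did not overlap, as was so for 16.5% of genes, and 0 of the 7 genes were called where 0.797% of 19436 were. At an unadjusted p under 0.05 it was 1 of the 7 genes, APCDD1, and 1098 of all genes, and with edgeR and DESeq2 it was 0 of 7. NOTUM, at 35.3, 31.1 and 22.3 in Cry2 dark against 13.8, 18.7 and 18.6 in wt dark, did not overlap either but did not pass (log2 change 0.75 ± 0.29 SE, limma adjusted p = 0.182), and in mCh dark against GFP dark it overlapped. AXIN2 had a log2 difference of 0.08 (95% interval -0.11 to 0.27) in Cry2 dark against wt dark and of 0.09 (95% interval -0.29 to 0.48) in mCh dark against GFP dark.

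Under light, engineered cells exceeded wild-type cells in the same 5 genes in both cultures. In Cry2 light against wt light the folds were 12.2 for AXIN2, 108 for NKD1, 53.1 for NOTUM, 9.61 for APCDD1 and 125 for TNFRSF19, so 5 of 7 genes were higher beside 29.6% of 19444 genes, and 64.7% of genes did not overlap. AXIN1 was lower there: 2854, 2897 and 2679.6 in Cry2 light, against 3355, 3566 and 3544 in wt light. No Cry2 light value reached the wt light range (log2 change -0.31 ± 0.07 SE, limma adjusted p = 0.000818, 31.3% of genes called lower), and the light effect itself did not differ between Cry2 and wt cells past the threshold (log2 difference -0.21, 95% interval -0.42 to -0.01, limma adjusted p = 0.0742; it passed without Cry2 dark replicate 2, at 0.0435, or without wt dark replicate 3, at 0.0448). In mCh light against GFP light AXIN1 overlapped (log2 change -0.02, 95% interval -0.26 to 0.22), and the 5 genes were higher by 11.2, 88.9, 15.3, 11.2 and 185-fold in the order given above, beside 26.8% of 19436 genes called higher, 27.6% called lower and 54.1% without overlap. The light effect itself was larger in Cry2 than in wt cells for the 5 genes, where 22.8% of genes were called so, and larger in mCh than in GFP cells for the same 5, where 19.5% were.

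Across the 8 groups the profiles of the genes were compared with each other. APCDD1 and AXIN2 were the closest pair among the 5, with a root mean square difference of 0.23 between their group means on the log2 scale, each centred on its own average. NKD1 and TNFRSF19 came next at 0.40, and AXIN1 and NKD2, the 2 that did not pass for light in engineered cells, differed by 0.09. In mean level mCh light and Cry2 light took the top 2 places for each of the 5 genes. They overlapped for AXIN2, NKD1 and NOTUM, while for APCDD1 and TNFRSF19 every mCh light library was above every Cry2 light library. The share of all genes without overlap between mCh light and Cry2 light was not computed, and this difference in level was not tested. It also goes with sorting and with the set of libraries. Below these 2 groups neighbouring groups overlapped for AXIN2, APCDD1 and TNFRSF19; for NKD1 GFP light and Cry2 dark did not, with means of 638 and 600.0. Among 20321 other genes the closest profiles by the same measure were RASGRP1 (0.09) for AXIN2, DEFA5 (0.13) for NKD1, BAHCC1 (0.24) for NOTUM, DOK6 (0.12) for APCDD1 and PRKG1-AS1 (0.20) for TNFRSF19. For AXIN1 it was KEAP1 (0.03) and for NKD2 HNRNPA3 (0.03).

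The machinery on which the 7 genes act was followed with 40 further genes in 5 lists. In Cry2 light against Cry2 dark 15 of 39 tested genes rose and 13 fell; in mCh light against mCh dark 15 of 40 rose and 12 fell. The shares among all genes were those given above. In the destruction complex, to which the AXIN proteins belong, 3 of 9 rose and 2 fell in Cry2 light. CTNNB1, beta-catenin itself, rose 1.39-fold, AMER1, which brings the complex to the membrane, rose 1.66-fold, and APC2 fell to 5.37 ± 3.21 in Cry2 light, against 55.4 ± 18.1 in Cry2 dark (SD, n = 3 each). In sorted cells 4 of 10 rose and 3 fell, with CTNNB1 1.45-fold higher and AMER1 1.65-fold higher in mCh light. Of 5 genes of AXIN turnover none rose and 1 fell in each culture: USP7, a deubiquitinase that acts on AXIN, was 1.41-fold lower in Cry2 light and 1.56-fold lower in mCh light.

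Of 12 genes for Dishevelled, which NKD proteins bind, and its other regulators, 5 rose and 4 fell in Cry2 light, and 5 rose and 3 fell in mCh light. DACT1 rose 21.1-fold in Cry2 light and 20.9-fold in mCh light, and DVL2, a Dishevelled, rose 1.80-fold and 1.83-fold. CXXC4, a Dishevelled inhibitor, fell to 28.9 in Cry2 light, against 162 in Cry2 dark. Among 10 genes for Wnt acylation, deacylation, secretion and glypicans, the setting in which NOTUM works, 6 rose and 4 fell in Cry2 light, and 5 rose and 3 fell in mCh light. WLS, which carries Wnt ligands to the surface, rose 48.0-fold in Cry2 light and 47.9-fold in mCh light. TRABD2B, a further extracellular Wnt inactivator, rose 2.10-fold and 3.15-fold; of the glypicans, on which NOTUM was first studied in flies, GPC3 rose 3.02-fold and 3.21-fold while GPC4 was 3.66-fold and 3.53-fold lower. Of the LGR receptors, LGR5, a stem cell marker and Wnt target, rose 386-fold in Cry2 light and 400.2-fold in mCh light, and LGR4 and LGR6 fell in both. The dark values of LGR5 were low, at 24.8, 18.4 and 4.46 in Cry2 dark and 11.1, 14.0 and 15.8 in mCh dark. Its folds are therefore imprecise.

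**Figure D5:**
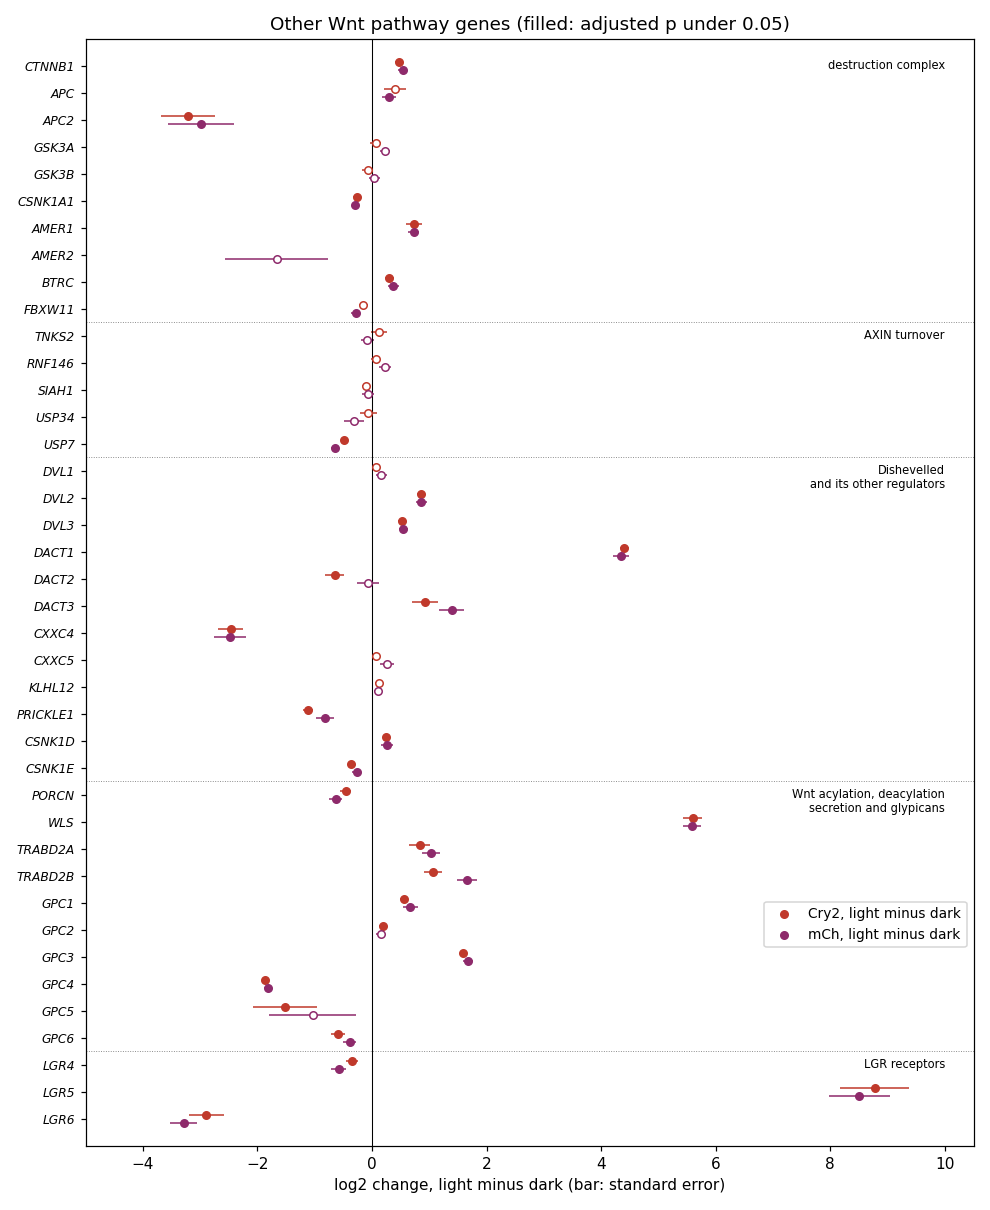
Log2 change, light minus dark, of the 40 other Wnt pathway genes in Cry2 monocultures and in sorted mCh cells, grouped by list, with standard errors; filled points passed an adjusted p of 0.05, and AMER2 was not tested in monoculture. LGR5, WLS and DACT1 lie far to the right in both, and APC2, LGR6 and CXXC4 to the left.

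In GFP cells, where NOTUM was the 1 gene of the 7 to rise, 3 of the 40 genes rose and 1 fell, beside 2.39% of all genes called higher and 2.21% called lower. CXXC5 stood at 6116, 6526 and 6226 in GFP light, against 3666, 3394 and 3263 in GFP dark, a 1.83-fold rise (limma adjusted p = 0.000741). DACT1 stood at 2308, 2376 and 2295 in GFP light, against 1338, 1375 and 1333 in GFP dark, a 1.72-fold rise (limma adjusted p = 0.00486). In monoculture CXXC5 stood at 4561, 4863 and 4823 in wt light, against 3957, 3866 and 4003 in wt dark, without overlap. It was called there in 1 of 24 settings, and DACT1 in 0 of 24. Their light effects were also compared, GFP in co-culture minus wt in monoculture. This difference was called in 29 of 33 settings for CXXC5 and 22 of 33 for DACT1. PRICKLE1, a planar polarity gene whose product binds Dishevelled, stood at 241, 243 and 294 in GFP light, against 2212, 2174 and 1955 in GFP dark. It was 8.16-fold lower with no overlap (log2 change -3.03 ± 0.16 SE, limma adjusted p = 7.46e-08), whereas it was 1.73-fold lower in mCh light than in mCh dark. The light effect on PRICKLE1 differed between mCh and GFP cells by 2.20 ± 0.22 SE on the log2 scale (limma adjusted p = 1.40e-06). PRICKLE1 was also lower in illuminated wild-type monocultures, at 1742, 1394 and 1750.2 in wt light, against 2418, 2282 and 2496 in wt dark. These groups did not overlap (log2 change -0.57 ± 0.09 SE, limma adjusted p = 0.0278), and it was the 1 gene called of 39 tested there. This call did not hold without wt dark replicate 1 (0.182), wt dark replicate 2 (0.0990), wt dark replicate 3 (0.108) or Cry2 dark replicate 1 (0.0575), nor without a filter (0.0564), in 1 fit of all libraries (0.109) or without the low-GC and low-integrity libraries (0.285); with edgeR it was 0.00784. The difference of its light effects, GFP in co-culture minus wt in monoculture, was -2.46 ± 0.19 SE on the log2 scale (limma adjusted p = 9.06e-09). GPC6 was 1.37-fold higher in GFP light (limma adjusted p = 0.0353), a call that 8 of the 12 fits with 1 library left out and the fit without a filter did not give (adjusted p up to 0.160). WLS overlapped between the groups (197 ± 12.1 in GFP light, 166 ± 35.3 in GFP dark; SD, n = 3 each), and LGR5 averaged 2.83 in GFP light and 13.9 in GFP dark and did not pass (limma adjusted p = 0.0785).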

How the data were processed

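Messenger RNA libraries were made with a strand-keeping kit, per the labels' protocols. Per the submitters' processing notes, the tools were cutadapt, FastQC, STAR, Bowtie2, HTSeq and DESeq, on GRCh38 and without versions, while the header of the deposited sample table says hg19; coordinates here come from GENCODE 29 by Ensembl identifier. Whether counting used strand is not stated, so genes that overlap AXIN2 and NKD1 could share reads with them. The authors deposited a normalised signal for 28297 Ensembl genes and 4 construct features; times 1 factor per library, 100% of values were whole reads within 0.01. For the monocultures the deposited sample table also gives GC percent and a score of RNA integrity.

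The main test was limma 3.58.1 (R 4.3.3), with a mean-variance trend, on log2(value + 1). Genes entered when 3 or more libraries of the fit reached 10, and p-values were adjusted by Benjamini-Hochberg over all of them, with a threshold of 0.05. Monocultures, co-cultures and all 24 libraries were fitted separately. Fold is the ratio of group means; log2 changes of low genes are understated by the pseudocount. Alternatives were pseudocounts of 0.5 and 10, no filter and a filter of 50, TMM scaling, edgeR 4.0.16 and DESeq2 1.42.0 on the recovered read counts, each library left out, 1 fit of all libraries, the replicate number as a block, and reads thinned to the smallest library. The code was tested on simulated data. Figures were drawn with matplotlib 3.10.9.

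The genes and the lists of other pathway genes and markers were chosen with earlier results of these data known. Other genes were named where their profile was nearest, where a list is described, or as said in the text. Genotype tags of the monocultures are opposite to their titles; titles were used, and construct reads go with them. Co-culture columns name only the group, so those libraries are a, b and c. Replicate numbers did not pair the monocultures: over 18 same-number pairs of libraries the correlation of deviations was -0.06 to 0.06. DCN and LUM were not found among the markers.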

Additional observations from a re-analysis of the deposited data

Results flagged for a closer look

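For AXIN2, NKD1, NOTUM, APCDD1 and TNFRSF19 the light effect of engineered cells differed from that of wild-type cells, by limma's test of the difference itself, in both cultures. The difference of log2 effects, Cry2 minus wt, was 3.52 for AXIN2, 6.91 for NKD1, 4.98 for NOTUM, 3.84 for APCDD1 and 6.63 for TNFRSF19, with adjusted p-values of at most 3.22e-06; 22.8% of 19444 genes had a difference called in this direction. The difference, mCh minus GFP, was 3.35 for AXIN2, 6.60 for NKD1, 3.51 for NOTUM, 3.88 for APCDD1 and 7.53 for TNFRSF19, with adjusted p-values of at most 1.45e-05; 19.5% of 19436 genes had one. The GFP light effect of NOTUM, 1.86, enters its value in co-culture; whether these differences themselves differ between the cultures was not tested. The groups hold 3 libraries each, so no value of a single library was tested against its own group; the libraries that stood apart are described above.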

How the results depend on the processing

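Of the values of single genes under alternative settings, 1975 kept their direction and side of the threshold, 11 passed it newly and 2 no longer passed; none changed sign while called. In wt light against wt dark the number of the 7 genes called was 0, and 1 (APCDD1) with DESeq2. In Cry2 dark against wt dark it was 1 (APCDD1), 0 to 1 with single libraries left out (0 without wt dark replicate 1), and 0 without the low-GC and low-integrity libraries. For the GFP effect in co-culture minus the wt effect in monoculture it was 0, but 1 (NOTUM) with a pseudocount of 10, a filter of 50 or DESeq2, and 0 to 1 with single libraries left out. For AXIN1 the Cry2 minus wt light effect passed without Cry2 dark replicate 2 (-0.26, adjusted p = 0.0435) or wt dark replicate 3 (-0.26, adjusted p = 0.0448), and otherwise not. The cause was not tested.

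Over all genes, calls with DESeq2 against limma numbered 290 against 14 for wt light against wt dark (47 with edgeR, 6 without a filter, 2 without the low-GC and low-integrity libraries), 1234 against 700 for Cry2 dark against wt dark (267 without those 2 libraries), 1451 against 894 for GFP light against GFP dark, 291 against 155 for mCh dark against GFP dark, 24 against 13 for the mCh minus Cry2 light effect (8 with edgeR, 5 thinned) and 763 against 467 for the GFP minus wt light effect. With single libraries left out these ran from 3 to 32, 327 to 1728, 484 to 1563, 93 to 227, 0 to 80 and 271 to 624. The counts of the other comparisons stayed within 1.5 times.

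With the replicate number as a block, 5 of the 7 genes passed in Cry2 light against Cry2 dark, 0 in wt light against wt dark, 1 in Cry2 dark against wt dark (APCDD1, adjusted p = 0.0131) and 6 in Cry2 light against wt light, as without it; no paired analysis was possible for the co-cultures because their columns carry no numbers. Sorted mCh and GFP libraries may share a co-culture, and the fits treat them as independent. TMM scaling moved the median change of all genes by less than 0.1 in every comparison. Depth limits TNFRSF19 and NOTUM in unlit cells, where 23 to 92 reads stand behind a group.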
